A study of Mus musculus with 2 samples.

Results

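The miRNA cluster examined here lies within Clcn5, the X-linked gene of an endosomal chloride and proton exchanger. It was defined by the names miR-532, miR-188, miR-362, miR-501, miR-500 and miR-660. Its members were taken by name, as all precursor rows in both tables whose mature miRNA carries 1 of these 6 names, whichever arm (5p or 3p) is given. Of the 6 names, 4 were listed, miR-532, miR-188, miR-362 and miR-501, each with 1 precursor entry in both replicates, which is 4 of the 620 entries of the series. MiR-500 and miR-660 were not listed in either table and have no value here. The samples were 2 replicates of whole hearts of wild type (WT) C57BL/6 mouse embryos at E9.5, without treatment, from which the small RNA was sequenced. There was 1 group and no contrast between conditions. The labels do not say whether the replicates came from separate litters or pools, so differences between the libraries may be technical only. The p-values below compare the libraries and treat reads as independent, so they cover counting error only.

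A miRNA is cut from a hairpin in its primary transcript, first by the DGCR8 and Drosha microprocessor in the nucleus and then by Dicer in the cytoplasm. This yields a duplex of the 5p and the 3p arm, of which usually one is kept by an Argonaute protein. The kept strand recognises its targets mainly through the seed, its nucleotides 2 to 8. Hairpins that lie close together on the same strand are often carried by one primary transcript, and the cluster in Clcn5 is known as such a group in mammals. MiR-501 is known from muscle satellite cells, miR-188 from bone marrow stromal cells, and miR-362 and miR-532 from tumor cells.

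In mouse genome mm9, the 4 listed precursors lie on the minus strand of chromosome X in the order miR-532, miR-188, miR-362 and miR-501 of transcription. They are given below as the deposited tables state them, from 5′ to 3′, because the 4 hairpins differ in which side holds the reads. Capitals mark the arm that held most reads in both replicates.

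miR-532, chrX:6825545-6825603, minus strand: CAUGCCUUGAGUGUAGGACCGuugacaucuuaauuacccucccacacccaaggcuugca

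miR-188, chrX:6825118-6825177, minus strand: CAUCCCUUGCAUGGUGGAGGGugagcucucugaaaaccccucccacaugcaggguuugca

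miR-362, chrX:6819110-6819168, minus strand: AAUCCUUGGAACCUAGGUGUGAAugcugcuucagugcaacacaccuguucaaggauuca

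miR-501, chrX:6818395-6818454, minus strand: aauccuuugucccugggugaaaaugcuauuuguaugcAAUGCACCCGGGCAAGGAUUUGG

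The precursors spanned 7209 bases and fell into a pair of tight couples. MiR-532 and miR-188 were 367 bases apart, then 5949 bases separated miR-188 from miR-362, and miR-362 and miR-501 were 655 bases apart. With gaps of at most 10 kb on one strand, the 4 entries formed 1 run that held no other entry. The annotation GENCODE vM1 places 1 further hairpin in the cluster, that of miR-500, at chrX:6814809-6814900 and 3468 bases downstream of the miR-501 hairpin. It places no hairpin of miR-660 within Clcn5. No precursor in either table held the first 18 bases of miR-500-5p or miR-500-3p.

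Clcn5 spans chrX:6730936-6896484 on the same strand, and its 5 annotated transcripts begin in different places. The 3 transcripts that begin upstream of the cluster carry all 4 precursors in a single intron of 103648 bases, chrX:6790137-6893784, which is the second intron of Clcn5-003 and the third of Clcn5-004 and Clcn5-005. MiR-532 lies 68181 bases downstream of the preceding exon, and miR-501 lies 28258 bases upstream of the next one. No precursor overlapped an exon of Clcn5. The other 2 transcripts, Clcn5-001 and Clcn5-002, begin downstream of the cluster, at chrX:6765840 and chrX:6765799, and do not contain it. The level of Clcn5 RNA was not analysed here.

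**Figure D1:**
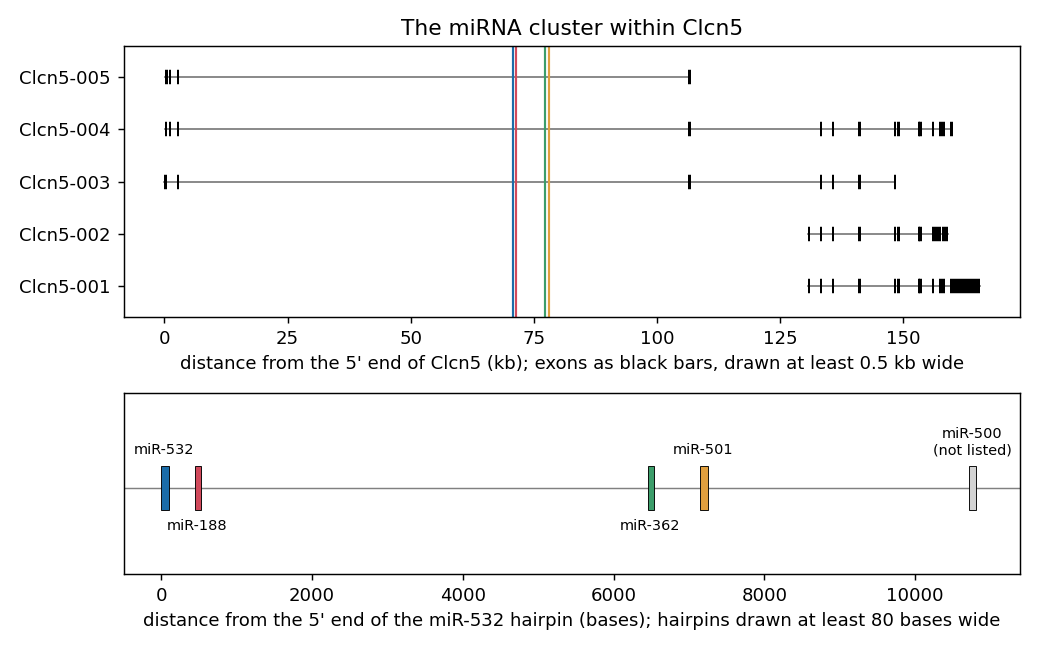
Position of the miRNA cluster. In the upper panel the x axis gives the distance in kb from the 5′ end of Clcn5, each row is an annotated transcript with exons as black bars, and the coloured lines are the 4 listed precursors, which cross the long intron of 3 transcripts and lie upstream of the other 2. In the lower panel the x axis gives the distance in bases from the 5′ end of the miR-532 hairpin, with listed hairpins in colour and the unlisted miR-500 hairpin in grey.

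The arms of these hairpins resemble each other, and the sequences below show in capitals the seeds by which they group. Of the 8 arms of the listed hairpins, 7 were matched by name to a RefSeq mature sequence, and all 7 had the same 5′ end, so that their seeds are those of RefSeq. Over the whole series, 453 of 620 entries could be matched by name and sequence, and 87.6% of them had the RefSeq 5′ end. The 3′ ends of 4 of the 7 arms were those of RefSeq. MiR-362-5p was 1 base shorter than its RefSeq sequence, miR-501-3p 1 base longer and miR-501-5p 3 bases longer. The miR-500 sequences are those of RefSeq (GRCm38.p6), and all others are from the deposited tables.

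miR-532-5p: cAUGCCUUgaguguaggaccg

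miR-188-5p: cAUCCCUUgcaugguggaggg

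miR-362-5p: aAUCCUUGgaaccuaggugugaa

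miR-500-5p: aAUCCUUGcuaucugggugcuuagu

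miR-501-5p: aAUCCUUUgucccugggugaaaaug

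miR-501-3p: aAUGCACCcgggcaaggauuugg

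miR-500-3p: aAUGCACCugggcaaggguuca

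miR-362-3p: aACACACCuguucaaggauuca

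miR-532-3p: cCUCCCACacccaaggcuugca

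miR-188-3p: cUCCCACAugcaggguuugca

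MiR-362-5p and miR-500-5p had the same seed, AUCCUUG, and miR-501-5p shared its nucleotides 2 to 7, AUCCUU. MiR-501-3p and miR-500-3p had the seed AUGCACC in common and differed at 4 of 22 positions, counted from 1 at the 5′ end of miR-501-3p, namely C9U, A18G, U21C and G22A. MiR-532-3p and miR-188-3p shared the 8 bases CUCCCACA, at nucleotides 2 to 9 of the former and 1 to 8 of the latter, so that their seeds are shifted by 1 base. The 4 arms with most reads, miR-532-5p, miR-188-5p, miR-362-5p and miR-501-3p, had 4 different seeds. Between whole precursors, identity in a global alignment was highest for miR-501 with miR-500 (73.8%), miR-362 with miR-500 (73.3%), the neighbours miR-532 and miR-188 (68.9%) and the neighbours miR-362 and miR-501 (68.3%). It was lowest for miR-532 with miR-501 (49.2%). No mature sequence of the 4 was listed for another entry in either replicate. Outside the cluster, 2 entries carried a seed of these arms. MiR-329 had that of miR-362-3p on its 3p arm, the less used one in both replicates, with 1114 and 1201 reads, and was singled out after its values were seen. MiR-511 had that of miR-532-5p on its 5p arm, with 3 of 7 reads in replicate 1 and 7 of 9 in replicate 2, so that this was the less used arm in the former and the more used one in the latter.

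The abundance of each miRNA was measured as mature reads, the reads on the arm with most reads, and divided by the total of mature reads in the same library, which was 4942257 for replicate 1 and 4806179 for replicate 2. Intervals are 95% Wilson confidence intervals of these shares and cover counting error only. Markers were summed as a check of the tissue. The 7 entries of heart muscle (miR-1a, miR-133a, miR-208a, miR-208b and miR-499) held 23.1% ± 0.64 of mature reads (SD, n = 2). In this sum and in the total, reads of miR-1a and miR-133a were counted more than once. The 2 entries of miR-1a had 492873 and 492871 mature reads in replicate 1, and miR-208a was listed in replicate 1 only. Endothelial miR-126a held 2.88% ± 0.016 and miR-143 and miR-145a of smooth muscle 7.38% ± 0.79. Lists for liver (miR-122), neural (miR-9, miR-124), red (miR-451a, miR-144), white (miR-142a) and pluripotent cells (miR-302b, miR-302d, miR-367) held between 0.0034% and 0.37% each. MiR-144 was listed in replicate 2 only and miR-124 in replicate 1 only. In the neural sum, the same reads of miR-9 were counted in several entries. MiR-486a-5p, also of blood cells but on no list, held 0.12%. Because whole hearts were sequenced, fewer cells of a type and less RNA per cell cannot be told apart.

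MiR-532-5p was by far the highest member. Replicate 1 had 23542 mature reads of it and replicate 2 had 21922, which correspond to 0.476% (interval 0.470% to 0.482%) and 0.456% (interval 0.450% to 0.462%). The mean was 0.466% ± 0.014 (SD, n = 2), which placed it at rank 40 of the 471 entries listed in both replicates and at rank 3 among the 47 such entries of chromosome X. Ranks here and below count entries, and several miRNAs above it, such as miR-1a, miR-21a and miR-26a, are listed more than once. Its place among distinct mature sequences was therefore higher. An entry above it on chromosome X, miR-92a-2-3p, has a mature sequence that is listed for 2 entries. The entry next above by mean share was miR-411-5p, an imprinted miRNA of chromosome 12 that the tables list as 2 overlapping entries, with 0.493% ± 0.077, and the entry next below was miR-341-3p with 0.443% ± 0.032 (SD, n = 2 for each). MiR-532-5p did not differ from these entries beyond their spread between replicates.

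MiR-501-3p was the second of the cluster, with 1774 mature reads in replicate 1 (0.0359%, interval 0.0343% to 0.0376%) and 2143 in replicate 2 (0.0446%, interval 0.0427% to 0.0465%). The mean of 0.0402% ± 0.0061 (SD, n = 2) placed it at rank 152. MiR-362-5p followed with 765 and 707 mature reads, a share of 0.0151% ± 0.00054 (SD, n = 2) at rank 201. MiR-188-5p was the lowest, with 325 and 343 mature reads and a mean of 0.00686% ± 0.00040 (SD, n = 2) at rank 242. This was close to the median of the entries listed in both replicates, 0.00849%, so that the cluster reached from the upper end of the table to its middle. The entries next above and next below miR-188-5p, miR-155-5p with 0.00688% ± 0.00083 and miR-669f-5p with 0.00671% ± 0.00016 (SD, n = 2 for each), were not separated from it by the spread.

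The order miR-532-5p, miR-501-3p, miR-362-5p and miR-188-5p was the same in both replicates, and no intervals of neighbours in this order overlapped within a replicate. MiR-532-5p was 11.8-fold ± 2.2 above miR-501-3p, miR-501-3p was 2.68-fold ± 0.50 above miR-362-5p, and miR-362-5p was 2.21-fold ± 0.21 above miR-188-5p (ratios of mature reads, SD, n = 2). These steps were larger than the difference between the replicates in any of the 4 members. The order did not follow the order along the gene. MiR-532 and miR-188, 367 bases apart, were the highest and the lowest members, with 72.4 times as many mature reads of miR-532-5p in replicate 1 and 63.9 times as many in replicate 2. MiR-362 and miR-501, 655 bases apart, differed far less.

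**Figure D2:**
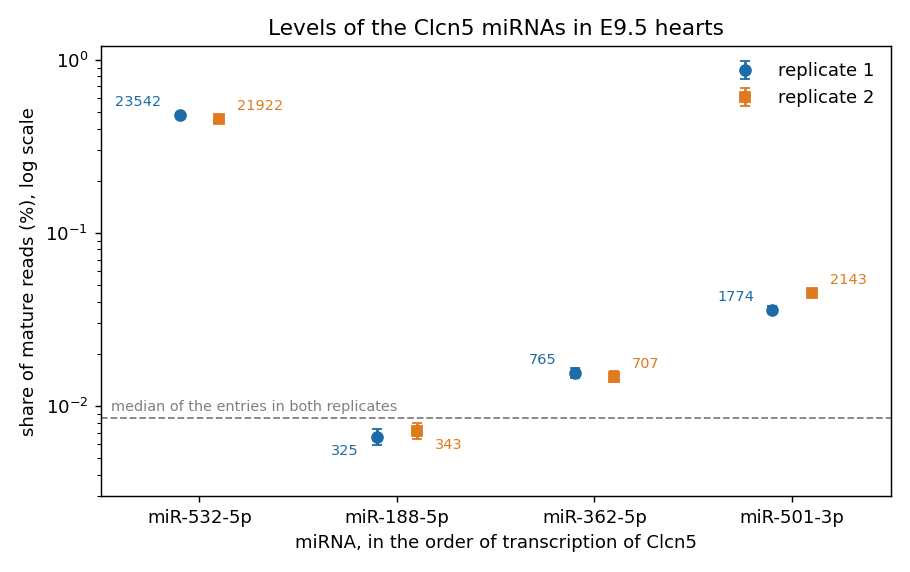
Share of mature reads of the 4 listed members, in percent on a log axis, with members on the x axis in the order of transcription, 1 point per replicate, error bars for 95% Wilson intervals and the mature read counts beside the points. The points of the replicates lie close together, miR-532-5p stands far above the others, and miR-188-5p lies just below the dashed median of 471 entries.

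Summed over its 4 entries, the cluster amounted to 26406 mature reads (replicate 1) and 25115 mature reads (replicate 2). The summed share was 0.534% in replicate 1 (interval 0.528% to 0.541%) and 0.523% in replicate 2 (interval 0.516% to 0.529%), with a mean of 0.528% ± 0.0083 (SD, n = 2). MiR-532-5p contributed 89.2% and 87.3% of these reads, miR-501-3p 6.72% and 8.53%, miR-362-5p 2.90% and 2.82%, and miR-188-5p 1.23% and 1.37%. Without miR-532-5p, the other 3 members together held 0.0622% ± 0.0060 (SD, n = 2). Of the mature reads of all 51 entries of chromosome X, 13.3% (replicate 1) and 11.6% (replicate 2) belonged to the cluster, with a mean of 12.4% ± 1.2 (SD, n = 2). This total contains reads that are shared or counted more than once. MiR-92a-2-3p, whose mature sequence is listed for 2 entries, made up 40.1% (replicate 1) and 41.6% (replicate 2) of it, and reads of miR-450b were counted in overlapping entries.

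A pair of other miRNA runs on chromosome X served for comparison, without a test. The run with miR-106a and miR-363 had 5 entries and 1.84% ± 0.18 of mature reads, and the run with miR-322, miR-503 and miR-450 had 8 entries and 1.47% ± 0.14 (SD, n = 2 for each), so that the summed share of the Clcn5 cluster lay below both in each replicate. The unevenness within the Clcn5 cluster lay between theirs. The highest entry of the first run, miR-92a-2-3p, whose mature sequence is listed for 2 entries, held 94.0% and 95.1% of its reads, and its highest and lowest entries differed 158-fold and 184-fold. Reads of this shared sequence may not all come from chromosome X. Both the sum and the range of the first run rest on them, and each of its other entries had a mean share of at most 0.036%. In the second run miR-351-5p held 38.4% and 47.8%, with a range of 14.6-fold and 22.6-fold. Entries that overlap each other were counted separately in these runs.

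The 4 hairpins did not use the same arm. The 5p arm held nearly all reads of miR-532, miR-188 and miR-362, and the 3p arm nearly all reads of miR-501. Of the reads on both arms of miR-532, 98.7% lay on the 5p arm in replicate 1 (23542 against 313 reads) and 98.4% in replicate 2 (21922 against 361 reads). For miR-188 the 5p share was 99.7% in both replicates, with 1 read of the 3p arm in each (325 against 1 and 343 against 1 reads). The 5p share of miR-362 was 93.0% in replicate 1 (765 against 58 reads) and 92.2% in replicate 2 (707 against 60 reads).

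In miR-501 the 3p arm held 97.6% of the reads in replicate 1 (1774 against 43 reads of the 5p arm) and 97.9% in replicate 2 (2143 against 45 reads). The tables list this precursor under the name of its 5p arm and state that the reads lie on the opposite one, as they do for 38.4% of the entries in replicate 1 and 38.0% in replicate 2. Its values are therefore given here as miR-501-3p. Over the 382 entries with at least 20 reads on both arms together in each replicate, 184 had most reads on the 5p arm and 198 on the 3p arm. Among them are overlapping entries that place the same mature reads on opposite arms, such as those of miR-21a with mean 5p shares of 99.95% and 0%. Such entries are also part of all values over the 382 entries given below.

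**Figure D3:**
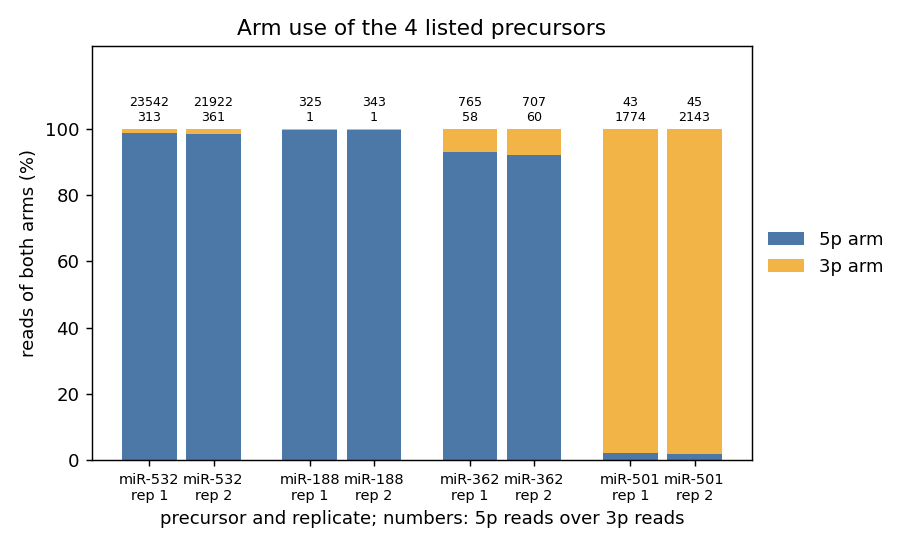
Arm use of the 4 listed precursors, as the percent of reads on the 5p arm and on the 3p arm of each precursor, with 1 bar per precursor and replicate and the 5p over the 3p read counts above each bar. The bars of miR-532, miR-188 and miR-362 are nearly all 5p, whereas those of miR-501 are nearly all 3p, in both replicates.

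The less used arm was largest in miR-362. MiR-362-3p took 7.05% of the reads of both arms in replicate 1 (interval 5.49% to 9.0%) and 7.82% in replicate 2 (interval 6.13% to 9.94%). The less used arm of miR-501 took 2.37% (interval 1.76% to 3.17%) and 2.06% (interval 1.54% to 2.74%), that of miR-532 took 1.31% (interval 1.18% to 1.46%) and 1.62% (interval 1.46% to 1.79%), and that of miR-188 took 0.307% (interval 0.0542% to 1.72%) and 0.291% (interval 0.0513% to 1.63%). The interval of miR-362 lay above those of the other 3 members in each replicate. Those of miR-188 and miR-532 overlapped in both replicates, at 1 read of miR-188-3p per library, and that of miR-501 overlapped both of these in replicate 2 but neither in replicate 1. Of the 382 entries, 103 had a less used arm at least as large as that of miR-362 (27.0%), and the median over all 382 was 1.02%. Because miR-532 was so much more abundant, its less used arm, miR-532-3p with 313 and 361 reads, was as highly covered as the main arm of miR-188 with 325 and 343.

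**Figure D4:**
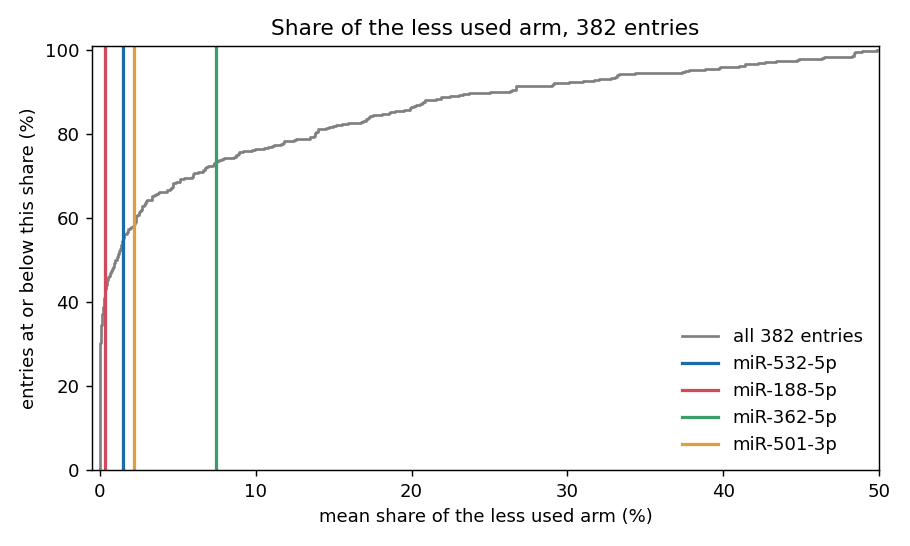
Mean share of the less used arm in percent (x axis) against the percent of the 382 entries at or below this share (y axis, grey steps), with coloured lines at the 4 listed members. The lines of miR-188, miR-532 and miR-501 lie at the steep left end near the median of 1.02%, and that of miR-362 lies further right at 7.44%.

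The 5p share of each entry was compared between the replicates by Fisher's exact test, two-sided, with Benjamini-Hochberg adjustment over all 382 entries. Of the 4 members 0 differed at an adjusted p of 0.05, against 8.9% of all entries. At an unadjusted p of 0.05, 1 member differed, miR-532, with a 5p share of 98.7% and 98.4% (adjusted p = 0.066, Fisher's exact test). Reads of the loop between the arms were found in miR-188 alone of the 4 members, with 6 reads in replicate 1 and 3 in replicate 2, at 332 and 347 reads on the whole precursor. In both replicates pooled this was 1.33% of its reads, and 10 of the 382 entries had at least this percentage. The loop held 0.0155% of all reads on precursors in replicate 1 and 0.0153% in replicate 2.

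The shares of mature reads were compared between the replicates by the exact binomial test, two-sided, with Benjamini-Hochberg adjustment over 431 entries. These were found in both tables and had 20 or more mature reads summed over the libraries, a minimum that all 4 members passed. Of the 4 members 2 differed at an adjusted p of 0.05, against 41.1% of all entries. MiR-501-3p was higher in replicate 2, by 0.31 on the log2 scale (exact binomial test, adjusted p = 7.3e-11). An absolute log2 ratio at least as large was found in 27.8% of the 431 entries. MiR-532-5p was lower in replicate 2, with a log2 difference of -0.06 (exact binomial test, adjusted p = 1.5e-05), and 79.6% of the entries had an absolute ratio at least as large. The log2 ratio of miR-362-5p was -0.07 (adjusted p = 0.47, same exact test) and that of miR-188-5p was 0.12 (adjusted p = 0.43, same exact test). When the totals were replaced by edgeR's TMM library sizes or by size factors from DESeq2, the log2 ratio of miR-532-5p was -0.12 or -0.13 and that of miR-501-3p was 0.25 or 0.24, and the same 2 members passed the test.

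The members did not move together between the replicates, with miR-501-3p and miR-188-5p above 0 and miR-532-5p and miR-362-5p below 0 on this scale. Of these, only miR-501-3p and miR-532-5p passed the test above, so the signs of miR-188-5p and miR-362-5p are not resolved. The ratio of miR-532-5p to miR-362-5p was 30.8 in replicate 1 and 31.0 in replicate 2, whereas that of miR-532-5p to miR-501-3p was 13.3 and 10.2. Summed over the cluster, replicate 2 differed from replicate 1 by -0.03 on the log2 scale, and without miR-532-5p it was 0.20. For all 431 entries the median absolute log2 ratio was 0.19, and edgeR's common dispersion corresponded to a coefficient of variation of 15.3%, so that the differences of the 4 members were of the size found across the table.

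**Figure D5:**
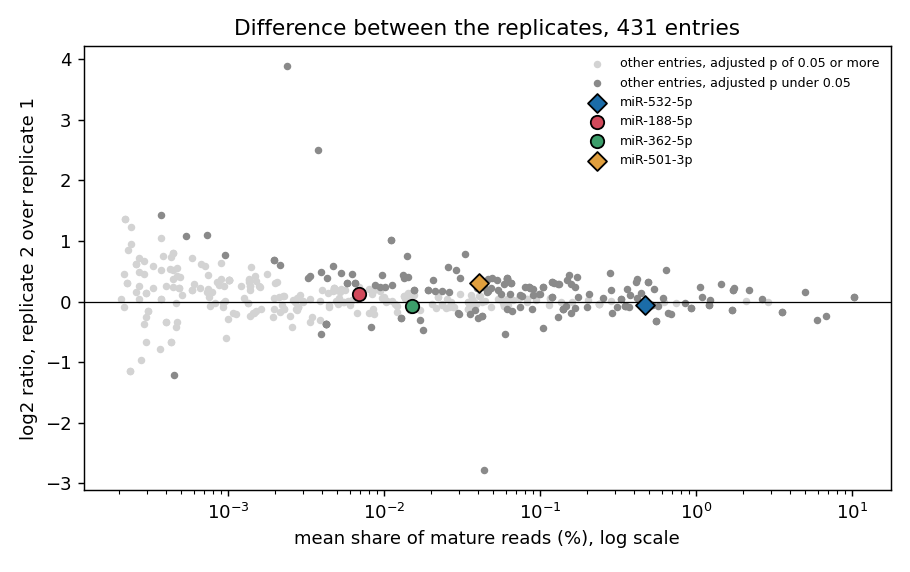
Log2 ratio of the share of mature reads, replicate 2 over replicate 1 (y axis), against the mean share in percent on a log axis (x axis), for the 431 entries tested, in dark grey where the adjusted p was under 0.05. The 4 members are drawn in colour, as diamonds where the adjusted p was under 0.05, and all lie within the cloud of other entries, miR-501-3p at 0.31 and the others between -0.07 and 0.12.

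MiRDeep2 also scores each precursor by how well its reads match the cutting of a hairpin, and this log-odds score, rounded in the tables, set miR-362 apart from its neighbours. The score of miR-532 was 12000 in replicate 1 and 11000 in replicate 2, that of miR-501 was 920 and 1100, and that of miR-188 was 170 in both replicates. That of miR-362 was 2.2 in both replicates, although its precursor held more reads (823 and 767) than that of miR-188 (332 and 347). Among the 39 entries of replicate 1 with reads within 1.5-fold of those of miR-362, the median score was 290, and 14 had a score of 2.2 or below, miR-362 included. In replicate 2 the median was 260 over 43 such entries, and 17 had a score of 2.2 or below. A low score at this depth was therefore shared by other entries. The tables state a significant randfold p-value, a test of the stability of the fold, for all 4 precursors in both replicates.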

How the data were processed

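Small RNA libraries of WT hearts at E9.5 were run on HiSeq2500 (TruSeq small RNA kit, single-end reads of 50 nt). The authors used miRDeep2 to place clean reads on mm9 and deposited, per replicate, raw read counts of each known precursor and of its mature, loop and star parts, without normalization, and the miRDeep2 score. Versions, trimming and length filters were not given in the sources used here. Read counts are not counts of molecules. The members, lists and comparisons were chosen with earlier results of these data known.

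Coordinates were brought to positions counted from 1, and all precursor sequences equalled the reference NCBIM37. Entries were paired where at least 50% of both precursors overlapped on one strand. The arm was taken from the position of the mature sequence in the precursor. Tests were the exact binomial test (shares) and Fisher's exact test (arms), each across all entries with Benjamini-Hochberg adjustment. Both were also run on simulated counts. These had counting error only, without further spread between libraries, so they cannot show how often such spread is called. The tests compare the libraries, not conditions. No p is given for the summed cluster. In 11 of the 471 entries found in both tables, none of them a member, the mature reads lay on different arms in the replicates. Named beside the members were entries next in mean share to the highest and the lowest member, entries that share a seed, and 2 further runs of chromosome X. Alternatives were to count a mature sequence that several entries share only once, to take the whole precursor's reads, other minimums or scalings, leaving out each replicate, adding loop reads and a gap of 50 kb. Tools were Python 3.11.15, numpy 2.4.6, pandas 2.3.3, scipy 1.17.1, biopython 1.88, matplotlib 3.10.9, RNAfold 2.7.2, and edgeR 4.0.16 and DESeq2 1.42.0 under R 4.3.3.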

Additional observations from a re-analysis of the deposited data

How the results depend on the processing

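With each mature sequence counted once, the summed share of the cluster rose from 0.528% to 0.724%, because fewer reads remained in the total, and the log2 ratio of the summed share, replicate 2 over replicate 1, moved from -0.032 to -0.024. This ratio was -0.091 with TMM library sizes and -0.10 with DESeq2's size factors. Without 1 replicate the summed share was 0.523% to 0.534%. The number of members that differed between replicates stayed at 2 in share and at 0 in arm use under each alternative run, and the number of members in the run stayed at 4 with gaps of up to 50 kb. The count over all entries in share was 177 of 431 tested. It ranged from 138 of 352 with each mature sequence once to 184 of 432 with all reads of the precursor. In arm use it was 32 to 35, against 34. The tests that compare the replicates have no value without 1 of them. With loop reads in the denominator, the 5p share of miR-188 was 98.4%. At 1 read of miR-188-3p per library, depth limits its arm share. No paired analysis was possible because there was 1 group of samples.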

Other observations

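The free energy of folding, computed with RNAfold for the deposited precursor sequences, was weakest for the most abundant member and strongest for the least abundant one. It was -18.5 kcal/mol for miR-532 (-0.31 per base), -22.9 for miR-501 (-0.38 per base), -24.2 for miR-362 (-0.41 per base) and -27.1 for miR-188 (-0.45 per base), with a median of -0.39 per base over all 620 entries. Of all entries, 82.3% were at least as stable per base as miR-532. With 15 bases of flanking genome added on each side, the order of the other members changed, to -0.46 per base for miR-501, -0.47 for miR-362 and -0.43 for miR-188, while miR-532 stayed the least stable of the 4 at -0.36. Across the 471 entries listed in both replicates, Spearman's rho between energy per base and mean share was 0.076, and -0.056 with the flanks. These values are a description across entries of the same libraries, which are not independent replicates.

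Base composition did not order the members in the same way. The GC content of the precursor was 50.8% in miR-532, 46.7% in miR-501, 45.8% in miR-362 and 56.7% in miR-188, against a median of 49.2% over all entries.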
